A study of Mus musculus with 23 samples.

Results

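Ly6a, the gene of stem cell antigen 1 (Sca-1), was read in 16 single mouse bone marrow-derived mesenchymal stem cells (mMSC1 to mMSC16), and the cells were selected on that reading alone, by rank. The 8 cells with the highest Ly6a level are called Ly6a-high here and the 8 with the lowest Ly6a-low. They are 16 of the 23 libraries of the series, which also holds 5 single HL-1 cardiomyocytes (HL1cm, an atrial tumour-derived mouse cell line at passages 70 to 85) and a population control of many cells for each type (mMSC-PC and HL1cm-PC). The mMSCs were purchased cells of 3-month-old male mice, strain C57BL/6J, untreated, at passages 6 to 11, grown on gelatin in serum-containing medium and captured 1 by 1 in a microfluidic chip for cells of 17 to 25 microns. No label names separate cultures or animals, so the 16 cells are taken as cells of a single culture and the ranking has no replicate. Because the groups were cut from a measured value in cells of that culture, no test was made and no p-value is given: differences are descriptions of these 16 cells, read against the spread between cells and against all other genes.

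Sca-1 is a small protein of the Ly6 family that is held on the outer face of the plasma membrane by a glycosylphosphatidylinositol (GPI) anchor. It is used to sort mouse blood stem cells and mouse mesenchymal stromal cells, and its gene is known to respond to interferon. Ly6a lies on chromosome 15 (chr15:74994877-74998031, minus strand, GRCm38, the build also called mm10) in a cluster of Ly6 genes that arose by duplication.

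The level of Ly6a is given as FPKM, a fragment number scaled to the length of the gene's exons and to all fragments mapped in the library, as the authors deposited it. In descending order the Ly6a-high cells were mMSC15 at 3900 FPKM, mMSC10 at 3585, mMSC6 at 3327, mMSC3 at 2194, mMSC2 at 1775, mMSC16 at 1672, mMSC4 at 1607 and mMSC7 at 1547. The Ly6a-low cells were mMSC5 at 834, mMSC13 at 803, mMSC9 at 759, mMSC14 at 637, mMSC8 at 561, mMSC11 at 538, mMSC12 at 435 and mMSC1 at 167. No cell lacked Ly6a, and the cut fell between mMSC7 and mMSC5. The names high and low are relative: mMSC-PC had 1397 FPKM, between the groups. The cardiomyocyte line had none, with Ly6a listed at 0 in HL1cm-PC and in each of the 5 HL1cm. Ranking by the ratio of Ly6a to Gapdh, a glycolytic enzyme used as a reference gene, placed the same 8 cells in the Ly6a-high group. Gapdh itself ranged from 157 to 319 FPKM (median 190) in the Ly6a-high cells and from 178 to 249 (median 215) in the Ly6a-low cells.

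**Figure D1:**
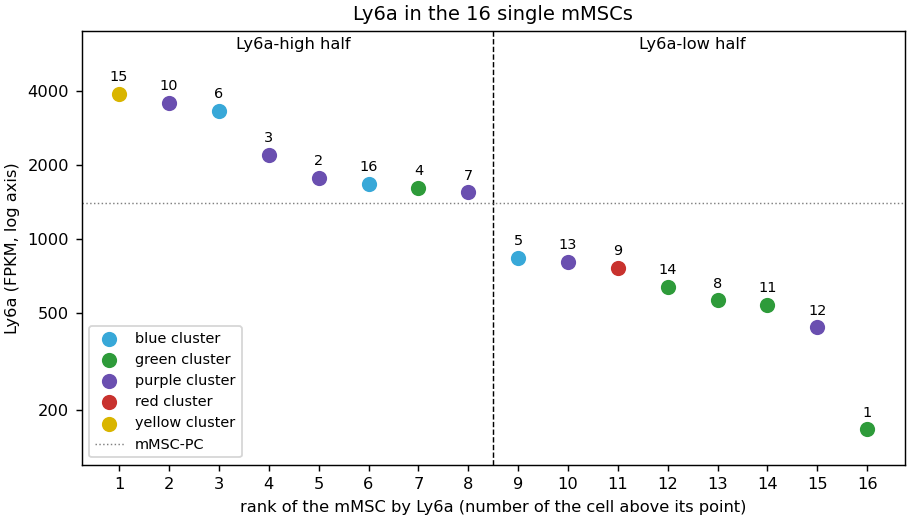
Ly6a level (FPKM, log axis) of the 16 single mMSCs against their rank, each point 1 cell with its number above it and the colour of its published cluster. The dashed line is the cut between mMSC7 at 1547 FPKM and mMSC5 at 834, and the dotted line is mMSC-PC at 1397.

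The study grouped the 16 cells into 5 colour clusters by their expression. Of the 5 cells of the green cluster, 1 (mMSC4) was Ly6a-high and 4 (mMSC1, mMSC8, mMSC11 and mMSC14) were Ly6a-low. The 6 purple cells lay 4 to 2 towards the Ly6a-high side and the 3 blue cells 2 to 1. The single yellow cell, mMSC15, had the highest Ly6a of all, and the single red cell, mMSC9, was Ly6a-low. The ranking and the green cluster overlap, and the main gene lists and many of the genes are given also without the green cells, as 7 against 4 cells.

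The libraries of the 2 groups covered a like number of genes: 5835 to 7151 (median 6857) at 1 FPKM or more in the Ly6a-high cells and 5175 to 7234 (median 6886) in the Ly6a-low cells. The lowest of each, mMSC15 and mMSC9, are also the shallowest libraries by the study's alignment statistics. FPKM alone does not give read depth, and read numbers were not used here. Short RNA symbols beginning with Mir or Snor took 14% to 68.1% of a Ly6a-high cell's summed FPKM (median 20.8%) and 4.68% to 75.0% of a Ly6a-low cell's (median 44.5%), and these symbols were left out. Collagens and other mesenchymal markers were present in every cell, with a summed level of 2819 to 4884 FPKM in the Ly6a-high cells and 2171 to 4290 in the Ly6a-low cells, although Thy1, which encodes CD90, was listed at 0 in all 16. Among 8 endothelial markers 7 were listed at 0 in every mMSC, as were 4 blood stem cell markers, Kit among them, and 5 of 10 macrophage markers, the pan-leukocyte gene Ptprc (CD45) among them. The summed macrophage markers reached 3.10 to 369 FPKM in the Ly6a-high cells and 8.20 to 87.2 in the Ly6a-low cells, and Cd14 and Csf1r were the only members that could be compared.

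Differences below are the mean log2 FPKM of the 8 Ly6a-high cells minus that of the 8 Ly6a-low cells, with values under 1 FPKM set to 1, so that a difference of 1 is 2-fold. This scale understates the change of a gene near the floor, and an exact 0 can be a failed estimate rather than absence. Of 9175 genes that reached 1 FPKM in 4 or more of the 16 cells, 921 (10%) were 2-fold or more higher in the Ly6a-high cells and 913 (9.95%) 2-fold or more lower, around a median difference of 0.01. After rescaling each library to TPM (a fixed sum per library, short RNAs included), 1375 were higher and 603 lower, so that the share of these genes that were higher went from 50.2% to 69.5%, while the median of all genes moved to 0.24. With the short RNAs left out of that sum the counts were 1128 and 1137 and the median 0.01. Only 2 genes (0.0218%) had every Ly6a-high cell above every Ly6a-low cell, and 0 (0%) had the opposite.

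Sequences of 4 promoters are shown because they stand for the G2/M genes, the list with the lowest median difference, and for the interferon and class I lists, whose genes share an inducer with Ly6a. Each runs 5′ to 3′ on the gene's strand from 250 bases before to 50 bases after its start, from RefSeq on GRCm38.p6. Ube2c (chr2:164769679-164769978, plus strand) and Cdca3 (chr6:124829926-124830225, plus strand) are genes of mitosis, and the capitals mark the element TTTGAA on either strand, the core of the cell cycle genes homology region through which many G2/M genes are repressed in resting cells.

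Ube2c: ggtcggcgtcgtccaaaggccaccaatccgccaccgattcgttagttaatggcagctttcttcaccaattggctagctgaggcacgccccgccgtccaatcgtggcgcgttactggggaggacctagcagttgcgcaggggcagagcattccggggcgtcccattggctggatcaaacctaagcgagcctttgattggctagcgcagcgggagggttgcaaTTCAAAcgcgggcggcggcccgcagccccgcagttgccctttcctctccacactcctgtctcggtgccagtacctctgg

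Cdca3: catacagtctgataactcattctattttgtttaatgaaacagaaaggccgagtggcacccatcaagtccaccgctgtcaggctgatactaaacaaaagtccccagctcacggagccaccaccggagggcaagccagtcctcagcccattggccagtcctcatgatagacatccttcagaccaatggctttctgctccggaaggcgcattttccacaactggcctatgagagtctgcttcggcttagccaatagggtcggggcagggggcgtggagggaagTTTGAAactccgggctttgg

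Rsad2 (chr12:26456403-26456702, minus strand), an antiviral enzyme, and H2-T22 (chr17:36042693-36042992, minus strand), a non-classical class I molecule, are shown for interferon and antigen presentation. Here the capitals mark, on either strand, a pair of GAAA copies with 2 bases of any kind between them, the core of the interferon-stimulated response element.

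Rsad2: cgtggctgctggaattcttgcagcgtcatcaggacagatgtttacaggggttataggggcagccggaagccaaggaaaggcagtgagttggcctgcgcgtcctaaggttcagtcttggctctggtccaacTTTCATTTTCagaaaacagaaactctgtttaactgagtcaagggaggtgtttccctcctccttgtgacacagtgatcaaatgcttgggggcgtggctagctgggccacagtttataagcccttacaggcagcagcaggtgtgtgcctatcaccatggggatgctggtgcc

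H2-T22: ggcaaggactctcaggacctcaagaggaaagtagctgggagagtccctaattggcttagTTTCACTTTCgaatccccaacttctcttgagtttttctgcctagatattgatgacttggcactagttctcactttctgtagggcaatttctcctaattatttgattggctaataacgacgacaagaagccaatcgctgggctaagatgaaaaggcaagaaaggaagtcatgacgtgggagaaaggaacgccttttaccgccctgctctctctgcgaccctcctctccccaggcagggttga

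A gene was counted when any of its promoter windows of this length held the element. The element TTTGAA was found for 26 of the 35 genes with a window among the 40 of the G2/M list (74.3%). It was found for 5 of 25 S phase genes (20%). Of the 6618 genes compared that had a window it was found for 935 (14.1%), and of all 27025 genes with a window for 5466 (20.2%). The shorter box CCAAT, bound by NF-Y, was found for 27 of those 35 G2/M genes (77.1%) and 17 of the 25 S phase genes (68%). It was also found for 12 of 17 genes of the MHC class I list (70.6%), for 43.6% of the genes compared and for 41.1% of all genes with a window. The GAAA pair was found for 20 of 43 interferon response genes (46.5%) and for 5 of 17 of the MHC class I list (29.4%). It was found for 4.05% of the genes compared and for 1079 of all genes with a window (3.99%). Both strands were searched, matches were allowed to overlap, and a match describes letters and is no evidence of binding in these cells. No promoter of Ly6a or Ly6e was in the table.

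Among the other Ly6 family genes, Ly6c1 differed most. Ly6c1 (chr15:75044018-75048830, minus strand), a GPI-anchored antigen of monocytes and endothelium that starts 50.8 kb from Ly6a, ranged from 106 to 1146 FPKM (median 310) in the Ly6a-high cells and from 0 to 330 (median 90.2) in the Ly6a-low cells. The highest values, 1146 and 983, were in mMSC15 and mMSC10, the cells with the most Ly6a, and the only 0 was in mMSC1, the cell with the least. The groups overlapped, since mMSC11 at 330 FPKM exceeded the lower Ly6a-high cells. Mean log2 was 8.38 ± 1.32 against 5.45 ± 2.88 (SD, n = 8 cells each), a difference of 2.93, which was 2.16 without the green cells and 3.02 within the purple cells (4 against 2).

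Ly6e (chr15:74955051-74959905, plus strand), a GPI-anchored protein expressed widely and induced by interferon, differed less. It ranged from 716 to 1659 FPKM (median 844) in the Ly6a-high cells and from 322 to 1309 (median 669) in the Ly6a-low cells, a difference of 0.55 that held in 56 of the 64 pairs of a Ly6a-high with a Ly6a-low cell. The Ly6a-low cell above most others was mMSC9, at 1309. Ly6i, the neighbour of Ly6a at 14.6 kb, was listed above 0 in mMSC3, mMSC10 and mMSC7 and in 1 Ly6a-low cell, mMSC11, at 4.51 to 20.1 FPKM. Ly6c2 was listed above 0 in mMSC3 alone, at 23.1 FPKM. Ly6a, Ly6c1, Ly6c2 and Ly6i are near copies of each other, so reads may be split between them in error, and how far this bears on their values was not tested.

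Of 27 Ly6 family genes listed, 12 were above 0 in some mMSC and 7 could be compared. Of these, 3 were 2-fold or more higher (Ly6c1, Cd59a and Lynx1) and 0 lower, against 10% and 9.95% of all genes. The median difference of the family was 0.92, beside 0.01 for all genes. This is the value of Ly6i, which reached 1 FPKM in only 3 Ly6a-high cells and 1 Ly6a-low cell. The family median was 0.17 with a floor of 10 FPKM and -0.04 within the purple cells. Cd59a, a GPI-anchored inhibitor of complement lysis that lies on chromosome 2, had a median of 20.4 FPKM in the Ly6a-high cells and 7.05 in the Ly6a-low cells (difference 1.54, and 0.78 without the green cells). Lynx1, a modulator of nicotinic receptors, differed by 1.14 and by 0.70 without mMSC15. Plaur, the urokinase receptor, had a median of 206 against 175 FPKM and a difference of -0.12, whose sign rested on mMSC4 at 22.7 FPKM: without that cell it was 0.29. Lypd1 differed by 0.37, and Ly6f, Gml and Lypd6b were each above 1 FPKM in too few cells to compare. Around the locus, the 10 genes compared within 1 Mb of the Ly6a start, 4 of them of the Ly6 family, had a median difference of 0.65. Of the 10, 3 were 2-fold or more higher (Ly6c1, Lynx1 and Gsdmd) and 0 lower, against 10% and 9.95% of all genes. Ly6c1 and Lynx1 are counted in the family above as well. In all, 9 of the 10 were above 0, against 50.9% of all genes.

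**Figure D2:**
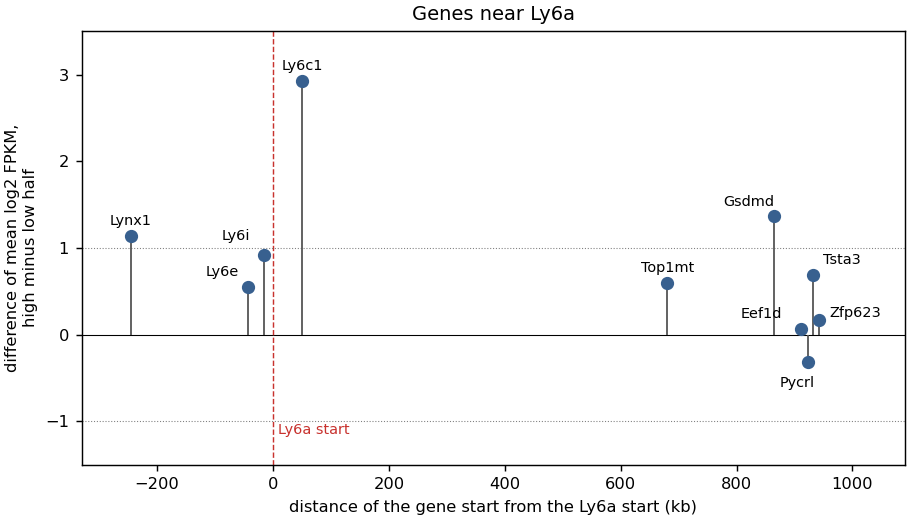
Difference of mean log2 FPKM (Ly6a-high minus Ly6a-low cells, 8 each) of the 10 genes compared within 1 Mb of Ly6a against the distance of their starts from the Ly6a start in kb; dotted lines mark 2-fold. Ly6c1 is highest at 2.93, and Pycrl, at -0.32, is alone under 0.

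The 2 genes whose groups did not overlap were Nupr1 and Rab5b. Nupr1 (chr7:126623249-126630861, minus strand), a small nuclear protein induced by stress, ranged from 451 to 1293 FPKM (median 557) in the Ly6a-high cells and from 39.7 to 445 (median 308) in the Ly6a-low cells. The step between the groups was narrow, from 445 in mMSC5 to 451 in mMSC6, and the lowest cell, mMSC12, stood far under the rest. The difference was 1.37, and 1.70 without the green cells. Rab5b (chr10:128677175-128696264, minus strand), a GTPase of early endosomes, ranged from 2.10 to 17.3 FPKM (median 6.08) in all 8 Ly6a-high cells and was listed at 0 in 6 Ly6a-low cells, with 1.25 in mMSC5 and 1.35 in mMSC12. Its levels were near the floor throughout, and its difference of 2.51 fell to 0.19 with a floor of 10 FPKM.

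Among genes that reached 1 FPKM in 12 or more cells and were higher in at least 52 of 64 pairs, Wisp2 differed most. Wisp2 (CCN5), a secreted matricellular protein of mesenchymal cells that modulates WNT and TGF-beta signalling, ranged from 19.2 to 254 FPKM (median 67.2) in the Ly6a-high cells and from 0 to 90.6 (median 5.82) in the Ly6a-low cells. It was present in all 8 Ly6a-high cells and listed at 0 in 4 Ly6a-low cells, mMSC1, mMSC5, mMSC9 and mMSC14. Mean log2 was 6.07 ± 1.28 against 2.26 ± 2.57 (SD, n = 8 each), higher in 60 of 64 pairs, a difference of 3.80 overall and 1.54 with zeros left out. In all, 100 genes (1.09%) were both 2-fold higher and higher in at least 52 pairs, and 60 (0.654%) the opposite.

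After Wisp2, the genes named by size of difference were Ccdc109b (3.01), a subunit that dampens the mitochondrial calcium uniporter, Lamtor2 (2.88), part of the lysosomal Ragulator complex, Mkrn2 (2.59), a RING-type ubiquitin ligase, and Insig2 (2.47), which holds the sterol sensor SCAP in the endoplasmic reticulum. Lamtor2 was present in all 8 Ly6a-high cells at 36.2 to 106 FPKM and in 5 of the Ly6a-low cells. Mkrn2 had a median of 13.5 FPKM against 2.09, with a maximum of 3.59 in the Ly6a-low cells and a 0 in the Ly6a-high cell mMSC7. The kinetochore gene Mis12 (2.45), the ribosome assembly nuclease Nob1 (2.39), Cdk2ap2 (2.33), Tmem179b (2.51), AI413582 (2.33) and 9030624J02Rik (2.34, and 0.83 without the green cells) completed this group. In each of them the Ly6a-high cells were all at 1 FPKM or more, while 2 to 4 Ly6a-low cells were under it.

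In the other direction Stmn1 differed most. Stmn1 (chr4:134468320-134473843, plus strand), a microtubule-destabilising protein of dividing cells, ranged from 28.3 to 545 FPKM (median 202) in the Ly6a-low cells, and in the Ly6a-high cells it was listed at 0 in mMSC15, mMSC2, mMSC16 and mMSC7, lay at 16.3 to 38.4 in 3 others and reached 510 in mMSC4. The Ly6a-high group thus had a single high cell, the green one. The difference was -4.43, and -4.47 without the green cells and -1.54 with zeros left out. Ints10 (chr8:68793929-68831667, plus strand), a subunit of the Integrator complex that processes small nuclear RNAs, was lower in the most pairs of the 12 genes named here: 23.3 to 41.7 FPKM (median 29.3) in the Ly6a-low cells against 0 to 25.2 (median 9.59), lower in 62 of 64, with a difference of -2.33. The Ly6a-low cells varied little (SD 0.27) and the Ly6a-high cells widely (SD 1.95), with zeros in mMSC15 and mMSC10.

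The cyclin-dependent kinase partners Cks2 (-2.57) and Cks1b (-1.93) and the CDK2-associated protein Cdk2ap1 (-2.46) were among the lower genes, while its relative Cdk2ap2 was among the higher. Cdk2ap1 ranged from 38.6 to 155 FPKM in the Ly6a-low cells (median 109) and from 0 to 119 in the Ly6a-high cells (median 17.3). RNA processing was represented by the splicing factors Prpf3 (-2.13) and Srsf9 (-2.10) and the nuclear reader of methylated adenosine Ythdc1 (-1.99, and -1.32 without the green cells). Evi5 (-2.06), a GTPase-activating protein for RAB proteins, was lower in 61 of 64 pairs, at 0 to 5.23 FPKM (median 1.65) against 3.18 to 25.9. The histone deubiquitinase Usp3 (-2.63), the phosphatase Ppm1g (-2.40, and -1.12 without the green cells) and 9430023L20Rik (-2.98) were the others.

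**Figure D3:**
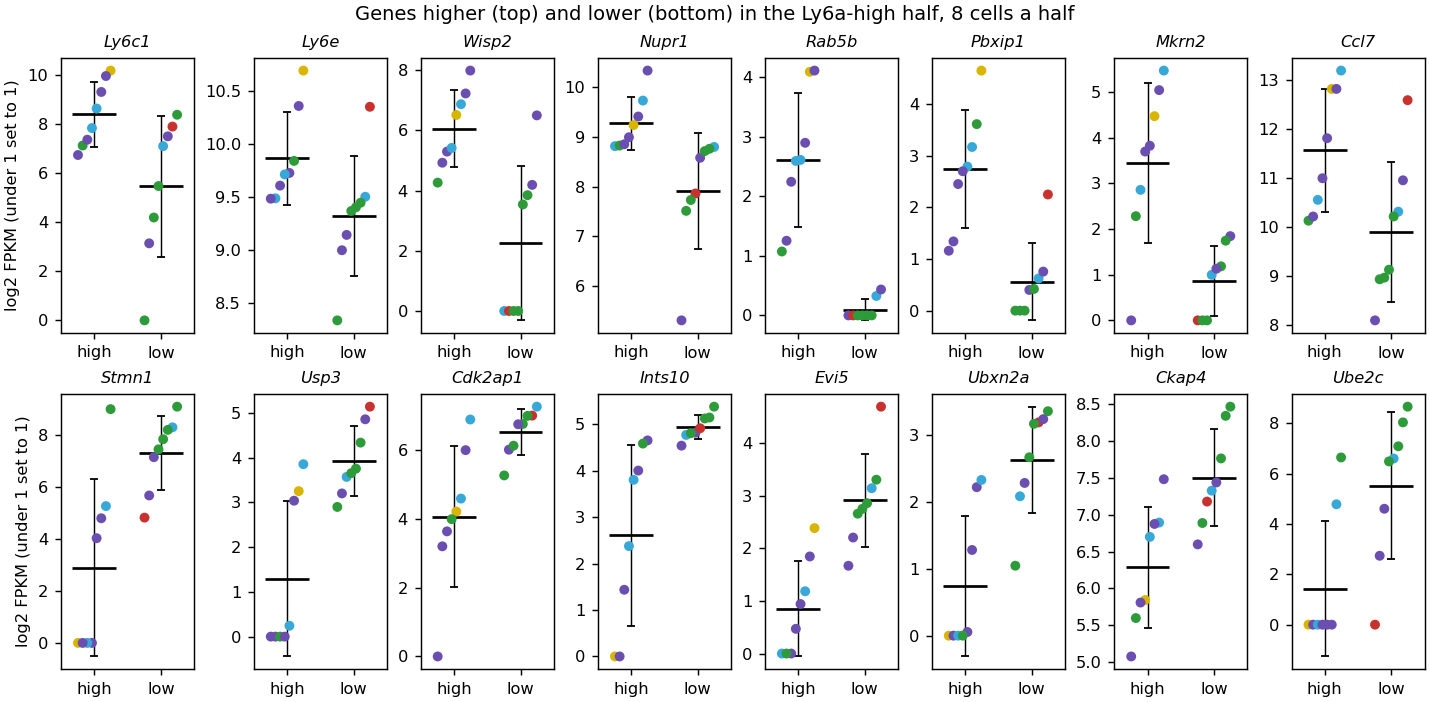
Level of 16 genes in each cell (log2 FPKM, values under 1 set to 1), Ly6a-high cells left and Ly6a-low cells right in each panel; points are cells in the colour of their cluster, the bar is the mean and the whisker the SD over 8 cells. Nupr1 and Rab5b show no overlap, and the single high Ly6a-high cell in the Stmn1 and Ube2c panels is the green cell mMSC4.

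Genes of mitosis were lower in the Ly6a-high cells, and less so without the green cluster. Of 40 G2/M genes, 30 were 2-fold or more lower and 0 higher (9.95% and 10% of all genes), with a median difference of -1.69. Per cell, the mean log2 level of these genes was 4.38 to 5.71 in the 4 green Ly6a-low cells and 5.41 in mMSC4, the green Ly6a-high cell. Outside the green cluster it was 0.51 to 2.42 (median 0.95) in 7 Ly6a-high cells and 0.78 to 3.47 (median 0.83) in 4 Ly6a-low cells, the highest being the blue cell mMSC5. Without the green cells the median difference was -0.19, with 11 genes 2-fold lower (12.1% of all genes) and 4 higher (17.1%), and within the purple cells it was 0.

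Ube2c, the ubiquitin-conjugating enzyme of the anaphase-promoting complex, was listed at 0 in 6 Ly6a-high cells, with 27.6 FPKM in mMSC16 and 100.3 in mMSC4. In the Ly6a-low cells it ranged from 0 in mMSC9 to 407 in mMSC8 (median 93.7), a difference of -4.10, which was -2.80 without the green cells and -0.60 with zeros left out. Cdca3, a trigger of mitotic entry (-2.63), and the centromeric histone Cenpa (-2.60) were next with Cks2. Without the green cells Cdca3 differed by -1.31 and Cenpa by -2.28, and within the purple cells by -0.03 and 0.51.

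Genes of DNA replication turned direction with the green cells. Of 33 S phase genes compared, 11 were 2-fold or more lower and 0 higher (9.95% and 10% of all genes). The median difference was -0.77, and it was -0.43 without mMSC1 and -0.51 without mMSC3. Without the green cells the median was 0.85, with 15 genes 2-fold higher (17.1% of all genes) and 0 lower (12.1%), and within the purple cells 0.43. The mean log2 level of the list was 4.75 to 5.73 in the green Ly6a-low cells and 4.20 in mMSC4, but also 4.93 in the blue Ly6a-high cell mMSC6 and 4.16 in the blue Ly6a-high cell mMSC16. Rfc2, a clamp loader subunit, and Mcm2, a helicase subunit, had differences of -1.90 and -1.78, which were -0.69 and -0.57 without the green cells. Prim1, the primase subunit, went from -1.60 to 0.89 without the green cells, and to -2.42 without mMSC6. Among 16 CDK inhibitor and p53 target genes 1 was 2-fold higher (Btg2, 1.11) and 1 lower (Gadd45a, -1.57), against 10% and 9.95% of all genes. Btg2 differed by 0.74 without mMSC16 and by 1.67 without mMSC13.

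**Figure D4:**
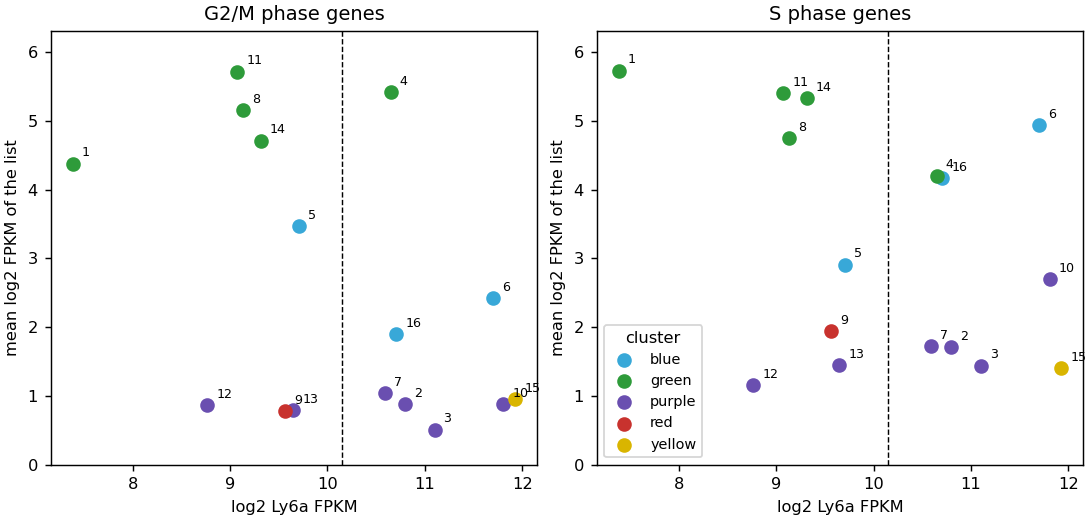
Mean log2 FPKM of 40 G2/M genes (left) and 33 S phase genes (right) against log2 Ly6a FPKM, each point 1 numbered cell in the colour of its cluster; the dashed line is the cut. Green cells hold the highest G2/M values, 4.38 to 5.71, on both sides of the cut.

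Genes of class I antigen presentation were mostly higher in the Ly6a-high cells, with and without the green cluster. These molecules show peptides of the cell's own proteins to T cells. Of 20 genes compared, 19 had a difference above 0 (50.9% of all genes) and 1, H2-M3, below (49.1%). Of the 20, 4 were 2-fold or more higher (10% of all genes) and 0 lower (9.95%), and the median was 0.59. It was 0.48 without the green cells, with 18 of 20 above 0 against 53.3% of all genes. In that setting 3 were 2-fold or more higher (17.1% of all genes) and 0 lower (12.1%). Within the purple cells the median was 0.42, with 14 above 0 against 52.2%, 5 of them 2-fold or more (21.8% of all genes), and 2 genes 2-fold lower (18.2%). The median was 0.37 without mMSC10 and 0.33 without mMSC15, the 2 cells with the most Ly6a. The mean log2 level of the list was 6.08 to 7.25 in the Ly6a-high cells and 5.41 to 6.73 in the Ly6a-low cells, and the groups overlapped.

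H2-T22 was highest in this list by difference (1.55), ranging from 73.0 to 172 FPKM (median 114) in the Ly6a-high cells and from 0.0102 to 144 (median 57.8) in the Ly6a-low cells. The near-0 value was that of mMSC8 alone, and without this cell the difference was 0.79, and 0.86 without the green cells. H2 genes are near copies of each other, and how reads were split among them was not tested. Erap1, the peptide-trimming enzyme of the endoplasmic reticulum, differed by 1.32, and by 0.40 without the green cells. Psmb9, an immunoproteasome subunit, differed by 1.02, and by 0.52 without them, and the classical class I genes H2-K1 and H2-D1 by 0.89 and 0.50. B2m, the shared light chain, had a median of 5429 FPKM against 3635 and a difference of 0.23. The chaperone Canx counted as 2-fold higher only through mMSC12, where it was listed at 0, and its difference was -0.15 without that cell.

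Interferon response genes differed less. Of 53 compared, 40 were above 0 against 50.9% of all genes, 5 were 2-fold or more higher and 2 lower against 10% and 9.95% of all genes, and the median was 0.29, which was 0.14 without the green cells and -0.03 within the purple cells. The RNA sensor Dhx58 differed by 1.62, with 4.91 to 60.3 FPKM (median 35.6) in the Ly6a-high cells and 0 to 34.6 (median 9.88) in the Ly6a-low cells. Ifit2, a translation-blocking antiviral protein, differed by 1.41, by 0.81 without mMSC13 or mMSC15 and by 2.22 without mMSC16, and Rsad2 by 1.21 and by 0.56 without mMSC8. The signal transducer Stat2 lay on the other side, with a difference of -1.02. Oasl1, a negative regulator of Irf7 translation, was lower by -1.64, through a single Ly6a-high cell, mMSC7, without which the difference was -0.69.

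Contractile genes of smooth muscle were mostly higher in the Ly6a-high cells. Of 28 compared, 24 were above 0 against 50.9% of all genes, 5 were 2-fold or more higher (10% of all genes) and 0 lower (9.95%), with a median of 0.34, which was 0.75 without the green cells and 1.11 within the purple cells, beside 0.07 and 0.06 for all genes. The mean log2 level of the list was 6.24 to 6.87 in the 4 purple Ly6a-high cells and 4.67 and 5.72 in the 2 purple Ly6a-low cells. Among the Ly6a-high cells the green mMSC4 was lowest, at 5.04. Tagln (transgelin, 1.94), Mylk (myosin light chain kinase, 1.85), Cnn1 (calponin, 1.63) and Vcl (vinculin, 1.61) differed most. Vcl differed by 0.87 without mMSC9, and without the green cells Cnn1 differed by 4.20 and Vcl by 3.16. Tagln shows the spread within each group: it ranged from 0 to 511 FPKM (median 65.2) in the Ly6a-high cells and from 0 to 249 (median 8.32) in the Ly6a-low cells. Acta2, smooth muscle actin, differed by 0.27 over all cells, by 1.69 without the green cells and by 2.00 within the purple cells, at 33.5 to 1933 FPKM (median 771) against 122 to 2222 (median 480), and 5 of its 8 highest cells were Ly6a-high.

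Collagens and other matrix genes had a median of 0.29 over 42 genes, with 34 above 0 against 50.9% of all genes, 5 of them 2-fold or more higher (10% of all genes) and 0 lower (9.95%). The median was 0.38 without the green cells and 0.47 without mMSC4. The collagen prolyl hydroxylase subunit P4ha2 (1.22, and 0.74 without mMSC5), the basement membrane collagen Col4a2 (1.18, and 0.74 without mMSC9), the protease Mmp23 (1.33), Col6a3 (1.07) and Col16a1 were the 5. Col16a1 was above 0 in 5 of the 8 Ly6a-high cells (median over all 8 of 2.62 FPKM, highest 7.07) and listed at 0 in all 8 Ly6a-low cells, so no fold is given. It could be compared only through the Ly6a-high cells, and its difference was 0 with a floor of 10 FPKM. Col1a1, the main chain of collagen I, ranged from 30.8 to 385 FPKM (median 216) in the Ly6a-high cells, the lowest being close to the lowest Ly6a-low cell at 48.1 (highest 190, median 102), a difference of 0.82. The 7 mesenchymal markers compared were all above 0, with a median of 0.35.

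Lineage genes did not go together. Over all genes, 10% were 2-fold or more higher and 9.95% lower, the shares beside which the counts of each lineage list stand. Among 16 adipogenic genes 3 were 2-fold or more higher and 2 lower, with a median of 0.35 that ranged from 0.09 without mMSC9 to 0.62 without mMSC5. Pparg, the regulator of fat cell formation, was listed above 0 in 6 Ly6a-high and 4 Ly6a-low cells, at medians of 14.3 and 1.60 FPKM (1.64, and 0.55 without the green cells), and the prostaglandin carrier Slco2a1 at medians of 29.3 and 4.77 (2.00). The fatty acid binding proteins Fabp4 and Fabp5 lay the other way (-2.21 and -1.42): Fabp4 was above 0 in 1 Ly6a-high cell, mMSC15 at 93.1 FPKM, and in 4 Ly6a-low cells, and Fabp5 differed by -0.71 without mMSC15. Among 14 osteogenic genes 1 was 2-fold higher (Wisp2) and 2 lower, the homeobox gene Msx2 (-1.20) and the cytokine Kitl (-1.04). Runx2, the regulator of bone formation, was at 2.87 to 33.7 FPKM (median 14.9) against 3.61 to 30.5 (median 7.74), a difference of 0.28. Among 10 chondrogenic genes 1, Runx3, was 2-fold higher (1.48), with a median of 0.00 that was -0.48 without the green cells, and Sox9, the regulator of cartilage formation, differed by 0.82 and by -0.40 without the green cells.

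Few other surface markers used for mesenchymal stem cells differed 2-fold. Of 25 compared, 1 was 2-fold higher and 1 lower, against 10% and 9.95% of all genes, and the median was 0.05. The higher was the fibronectin receptor chain Itga5 (1.25). The lower was the PDGF receptor Pdgfra (-1.05, -0.68 without mMSC13 and -2.09 without the green cells). Itga5 ranged from 2.86 to 63.0 FPKM (median 27.1) in the Ly6a-high cells and from 2.29 to 24.8 (median 9.88) in the Ly6a-low cells. Pdgfra reached 1 FPKM in 5 cells of each group. Cd34, the sialomucin of blood stem cells, was at 1 FPKM or more in 3 cells of each group and highest in a Ly6a-low cell (52.8 FPKM), with a difference of -0.82, -0.21 without mMSC5 and -0.48 without mMSC9. The hyaluronan receptor Cd44 differed by 0.01 and the tetraspanin Cd9 by 0.47. Among 16 genes known from progenitor fibroblasts, 4 were 2-fold or more higher (Ly6c1, the hyaluronan synthase Has1, the calcification inhibitor Mgp and Gas6) and 2 lower (Pdgfra and Procr). The shares over all genes were 10% and 9.95%, and the list's median was -0.04, with 8 genes above 0 and 8 below. Has1 was above 0 in 4 Ly6a-high and 2 Ly6a-low cells, and Mgp differed by 1.33 and by -0.43 with zeros left out. Procr, the protein C receptor, reached 1 FPKM in 3 Ly6a-high and 6 Ly6a-low cells (-3.11).

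Chemokine and NF-kB genes split as well, 3 of 29 being 2-fold or more higher (10% of all genes) and 7 lower (9.95%). The median of the list was 0, and -0.49 without the green cells. Ccl7 (chr11:82045712-82047525, plus strand), a monocyte attractant, ranged from 1119 to 9381 FPKM (median 2820) in the Ly6a-high cells and from 272 to 6167 (median 873) in the Ly6a-low cells, a difference of 1.67. Of the Ly6a-low cells, mMSC9 alone exceeded 1982 FPKM. Its neighbour Ccl2 differed by 1.26, at medians of 2388 and 809 FPKM. The alarmin Il33 (-1.69), the NF-kB inhibitor Nfkbib (-1.49) and the chemokine Ccl8 (-1.45) were lower by mean log2, but in few cells. Il33 was above 0 in 1 Ly6a-high and 4 Ly6a-low cells, Nfkbib in 2 and 5, and Ccl8 in 2 and 4. The highest Ccl8 value, 113 FPKM, was in the Ly6a-high cell mMSC4. The Ccl8 difference ran from -2.23 to -0.93 when 1 cell was left out. Il6 was listed above 0 in 5 Ly6a-high and 4 Ly6a-low cells, with a difference of -0.04 that ranged from -0.62 to 0.59 when 1 cell was left out and was -1.38 without the green cells. Csf1r, the receptor of macrophage colony-stimulating factor, was above 0 in 7 Ly6a-high cells (median 5.87 FPKM) and in 1 Ly6a-low cell, mMSC9 (difference 2.25), while Ptprc and Lyz2 were listed at 0 in every mMSC.

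Among 24 genes of cholesterol synthesis and uptake 5 were 2-fold or more higher (10% of all genes) and 2 lower (9.95%). The median of the list was 0.30, and it ranged from 0.08 without mMSC13 to 0.59 without mMSC10. Insig2 and Nsdhl, a sterol dehydrogenase (1.90), were highest, and Pmvk, phosphomevalonate kinase (-1.29), was among the lower. The list of GPI anchor synthesis and transfer had 1 of 27 genes 2-fold higher and 6 lower, beside the same shares of all genes. Sca-1 depends on this anchor for its place in the membrane. The higher gene was Flot1 (1.94), a membrane raft protein that is not part of anchor synthesis. The median of this list was -0.02, and -0.62 among genes reaching 1 FPKM in 12 or more cells. Pigf, of the step that adds ethanolamine phosphate, differed by -2.47 and by 0.38 with zeros left out. The immediate early genes (24 compared, 3 higher and 2 lower beside the same shares, median 0.02) included Dusp1, a phosphatase of MAP kinases (2.30), and Ier3 (-1.91).

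TGF-beta and BMP signalling had 1 of 32 genes 2-fold higher (10% of all genes) and 4 lower (9.95%). The median of the list was 0.02, and it was -0.40 without the green cells and -0.35 within the purple cells. The remaining lists lay near the median of all genes over the 8 against 8 cells, and the same shares of all genes stand beside their counts. Glycolysis had 0 of 21 genes 2-fold higher and 4 lower (median -0.09), endoplasmic reticulum chaperones 2 of 27 and 1 (-0.02), lysosomal genes 4 of 27 and 1 (0.05), and antioxidant genes 4 of 32 and 5 (0.00). Nuclear genes of the respiratory chain had 2 of 74 higher and 2 lower (0.00), and cytoplasmic ribosomal proteins, whose many processed copies can take their reads, 1 of 79 and 3 (-0.11). Of 16 genes in general use 1 was 2-fold higher, Tbp (1.95). Actb, cytoplasmic actin, differed by -0.14.

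**Figure D5:**
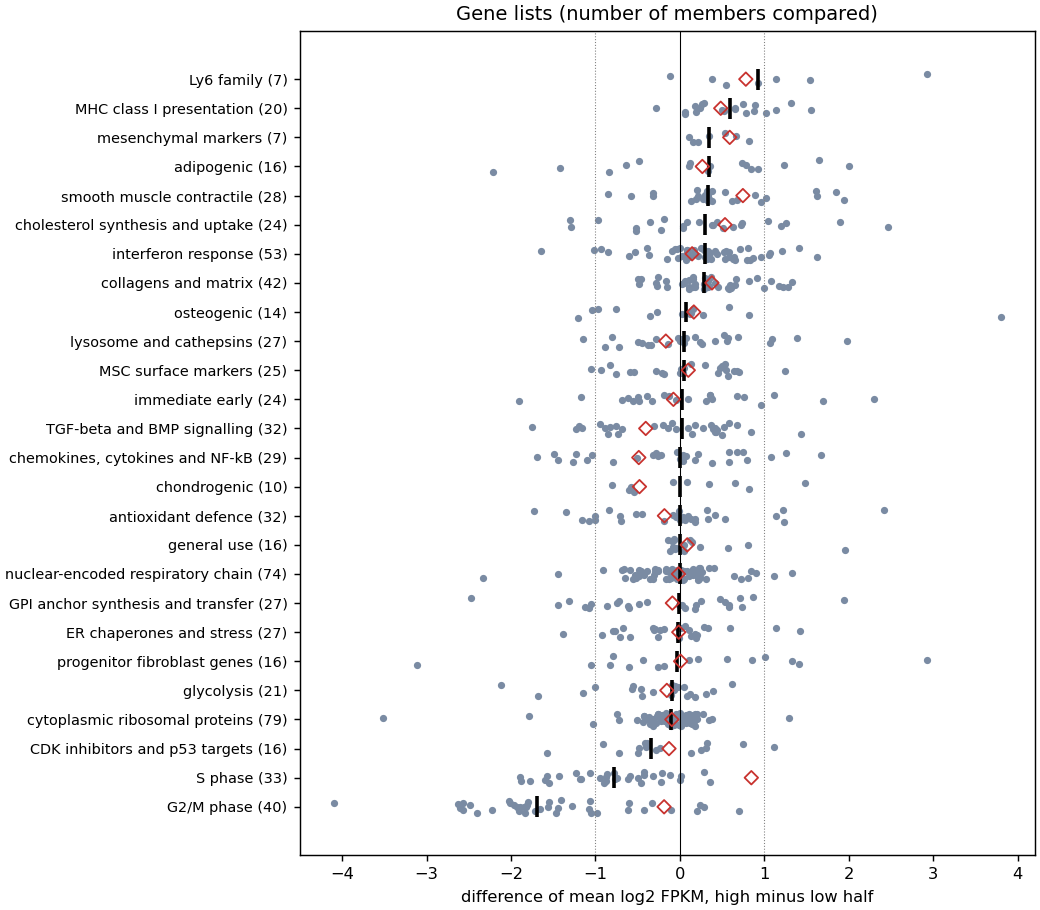
Difference of mean log2 FPKM (Ly6a-high minus Ly6a-low cells) of each gene compared, by list with the number of genes in brackets; black bars are list medians over 8 against 8 cells, open red diamonds the medians without the green cluster (7 against 4), and dotted lines 2-fold. The G2/M median goes from -1.69 to -0.19 and the S phase median from -0.77 to 0.85 when the green cells are left out, while the class I median stays at 0.59 and 0.48.

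Likeness to Ly6a was measured as Pearson's r of log2 FPKM over the 16 cells, which share a culture, a capture and a library preparation, so that r is a description. Among genes that reached 1 FPKM in 12 or more cells, Ly6c1 was most like Ly6a (r = 0.85, Spearman's rho = 0.74), and r was 0.83 over the 11 cells outside the green cluster. Mkrn2 (0.82), Ccl7 (0.77), Pbxip1 (0.77), Vamp8 (0.76), Qars (0.75), Fstl1 (0.74) and Ly6e (0.74) followed. Pbxip1 (chr3:89436706-89450952, plus strand), a partner of PBX homeodomain proteins, was at 2.23 to 25.0 FPKM (median 6.70) in the Ly6a-high cells and at 0 to 4.75 (median 1.33) in the Ly6a-low cells, higher in 62 of 64 pairs. The SNARE protein Vamp8 (difference 0.81) and the secreted glycoprotein Fstl1 (0.67) were abundant in every cell, at 112 to 432 and 315 to 1713 FPKM. For Fstl1 rho was 0.65, and r was 0.54 over the 11 cells outside the green cluster. Qars, the glutaminyl-tRNA synthetase, differed by 2.00.

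The genes most unlike Ly6a were Ubxn2a (r = -0.79), an adaptor of the p97 ATPase, Ints10 (-0.76), the DNA helicase Brip1 (-0.76, and -0.61 outside the green cluster), Samd4b (-0.73), Ckap4 (-0.73), Tnfrsf26 (-0.71), the mitochondrial import receptor Tomm20 (-0.70; its difference was -0.97, and -0.58 without mMSC15) and the splicing regulator Mbnl3 (-0.69). Ckap4, a membrane protein of the endoplasmic reticulum, was abundant in all 16 cells, at 33.7 to 179 FPKM (median 80.6) in the Ly6a-high cells and 96.8 to 354 (median 167) in the Ly6a-low cells, a difference of -1.22. Ubxn2a lay between 0 and 10.3 FPKM in all cells, and its difference of -1.90 was close to 0 with a floor of 10 FPKM. Samd4b lay between 0 and 7.01 FPKM, and its difference of -1.02 was 0 with that floor. Brip1 lay between 0 and 14.1 FPKM, and its difference of -1.70 was -0.11 with that floor and 0.07 within the purple cells. Among whole lists, the class I mean had r = 0.72 with Ly6a (rho = 0.68) and 0.84 outside the green cluster, the interferon response mean 0.65 and 0.56, the G2/M mean -0.47 and -0.03, and the S phase mean -0.37 and 0.36. The count of genes detected per cell at that level had r = -0.08.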

How the data were processed

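RNA-seq was read from 16 single mMSCs, 5 single HL1cm and a population control of each. The authors aligned paired reads to mm10 with TopHat2 2.0.12 and computed FPKM with Cufflinks 2.2.1 without replicates being pooled, and the FPKM values were used as deposited. FPKM is relative to all mapped fragments, but its sum over genes is not fixed. The sum was 2.53e+06 in mMSC1, with 75.0% in short RNA symbols, and 630240 in mMSC13, with 4.68%. Whether abundant short RNAs lower the other values of a library was not tested. Of 23284 rows, 759 with symbols beginning Mir or Snor were left out. Values under 1 FPKM were set to 1 and log2 taken, and 9175 genes that reached 1 FPKM in 4 or more of the 16 cells were compared in Python 3.11.15 with pandas 2.3.3, numpy 2.4.6 and scipy 1.17.1. The script was tested on simulated data. The cells, the 30 gene lists and the rules were chosen with earlier results of these data known, and some lists overlap. Cluster colours were taken from the study. Named genes were the 12 highest and 12 lowest differences among genes that reached 1 FPKM in 12 or more cells, with at least 52 of 64 pairs in that direction, those without overlap, up to 4 largest of each list, the 8 highest and lowest r with Ly6a, the Ly6 family and a few fixed genes. Some further list members were named after their values were seen. Positions are those of GENCODE M21. The library kit does not mark strand, so reads of overlapping genes cannot be told apart. Alternatives changed the floor, filter, scaling, zeros and the cells compared. Some genes of these lists are not reported here.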

Additional observations from a re-analysis of the deposited data

Results flagged for a closer look

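Within each group of 8 cells, Dixon's criterion was used on the highest and the lowest cell. A value was picked out when its gap to the nearest neighbour was large for the group's range. For normally spread values this happens by chance in about 1 of 20 groups. That rate does not hold for values tied at the floor, nor for Ly6a, by which the groups were cut. Of 66 groups tested 10 were picked out.

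Ly6a itself was far under the other Ly6a-low cells in mMSC1, at a log2 level of 7.38, which only describes the ranking. The count of genes that reached 1 FPKM was lowest in mMSC15 among the Ly6a-high cells (5835) and in mMSC9 among the Ly6a-low cells (5175), the shallowest libraries. The mean log2 level of G2/M genes was highest in mMSC4 among the Ly6a-high cells, at 5.41 with the next cell at 2.42.

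Of the single genes, 3 were picked out in mMSC12, a Ly6a-low cell: Nupr1 at a log2 level of 5.31, Ppm1g at 0 and Ythdc1 at 0.38. In the Ly6a-high cells 9030624J02Rik was lowest in mMSC7 (log2 level 1.67) and Cks1b in mMSC15 (0). Ly6i was at a log2 level of 2.17 in mMSC11 and listed at 0 in the other 7 Ly6a-low cells.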

How the results depend on the processing

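The counts of genes 2-fold or more higher and lower (921 and 913) were 108 and 114 with a floor of 10 FPKM and 458 and 353 among the 4677 genes that reached 1 FPKM in 12 or more cells, settings that leave fewer low values. TPM gave 603 lower, the 5 highest against the 5 lowest cells 1547 lower, and leaving out the green cluster 1565 higher. Leaving out 1 cell gave 847 to 1049 higher and 903 to 1073 lower. Genes without overlap, 2 higher and 0 lower, were 1 higher with a floor of 10, in 12 cells, in TPM, in TPM without short RNAs (added after seeing the data) and with median-of-ratios size factors. They were 110 and 169 with zeros left out, 38 and 42 for 5 against 5 cells, 5 and 3 without mMSC9 and mMSC15, 23 and 16 without the green cluster, and 1 lower without ranks 8 and 9. Leaving out 1 cell gave 2 to 3 higher and 0 to 2 lower, with 2 lower without mMSC16 and 1 without mMSC1, mMSC5, mMSC8, mMSC9 or mMSC12. Smaller groups leave fewer pairs to overlap.

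Among named genes 2-fold or more apart, those whose difference changed sign were Atp5s (-0.025) and Nr4a2 (0.14) with a floor of 10, and, with zeros left out, Canx (-0.15), Gclm (-0.80), Lgmn (-0.045), Ltbp2 (0.30), Mgp (-0.43), Mt2 (-0.50), Nr4a2 (0.65), Pigf (0.38) and Tgfbr2 (0.11). Rps27 was -0.28 for 5 against 5 cells, Mt2 -0.42, Prim1 0.89 and Rpl34 0.37 without the green cluster, and Canx ranged from -0.15 (without mMSC12) to 1.42 over the cells left out in turn. With a floor of 10 the differences of Mkrn2, Pbxip1, Usp3, Evi5 and Csf1r were 0.73, 0.20, -0.60, -0.17 and 0.51. Named genes under 2-fold, such as Sox9, Plaur, Runx2, Acta2 and Il6, changed sign under other settings too. The cause was not tested. The class I, smooth muscle, matrix and adipogenic medians stayed above 0 in all 30 settings. No paired analysis was possible because the comparison lies within the 16 mMSCs, whose numbers name cells and pair none. FPKM hides read depth, the cells come from a single culture as far as is stated, and 8 cells a group describe these cells only.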
